A study of Mus musculus with 6 samples.

Results

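Rbp2, Rbp4, Rbp7 and Crabp2, listed under the label cellular retinoid-binding proteins, were looked up by gene symbol in the count tables of all 6 libraries. Each symbol matched 1 gene, giving 4 of the 55335 genes in the tables. The libraries hold single cells of mouse intestinal organoids, which are crypt epithelium grown in gel, from wild-type C57BL/6 mice aged 8 weeks. At day 4 (96 h) 4 libraries were taken after vehicle (DMSO), an RXR antagonist at 5 µM, all-trans retinoic acid at 10 µM, or culture in vitamin A-free medium, and 2 vehicle libraries were taken at day 1 (24 h). The labels write the dose unit as μm, read here as micromolar. Each treatment was given at day 0 and again at day 3, when all cultures moved to ENR medium. Until then every culture, controls included, received Wnt3a-conditioned medium with inhibitors of ROCK and GSK3B. The design text describes organoids from 2 mice in duplicate, without saying which library holds which, and whether vitamin A-free cultures received DMSO was not given. Debris and dead cells were removed by sorting, so the libraries show the cells that passed it.

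Retinoids, the family of vitamin A and its products, dissolve poorly in water and travel bound to proteins. Inside cells, small barrel-shaped proteins of the lipid-binding family hold retinol and retinal (RBP2 and RBP7 among them) or retinoic acid (the CRABPs), and pass them to the enzymes that esterify, oxidise or break them down. Retinoic acid acts through nuclear receptors, the RARs, which pair with RXRs. RBP2 is the form of the absorptive enterocyte, where it carries newly absorbed retinol and retinal. RBP7 binds retinol and is best known from fat tissue and blood vessels, and CRABP2 delivers retinoic acid to nuclear receptors. RBP4 differs from what the label says: it is a secreted lipocalin that carries retinol in blood plasma with transthyretin, and belongs to another protein family.

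The 3 genes with data lie on different chromosomes in GRCm38 with the GENCODE M21 annotation. Rbp2 spans chr9:98486115-98509781 on the plus strand. Rbp7 spans chr4:149449687-149454978 and Rbp4 spans chr19:38116629-38125281, both on the minus strand. Crabp2 spans chr3:87948666-87953376 on the plus strand. All 4 are protein-coding. Rbp2 overlaps Gm37113, a same-strand transcript that had 31 to 1464 UMIs per library, against at least 56475 for Rbp2.

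The 5′ flanks of Rbp2 and Rbp7 are shown because both genes were lower with the RXR antagonist while with retinoic acid they were on opposite sides of vehicle. They come from the RefSeq promoter table (GRCm38.p6), which had entries for 3 of the 4 genes and none for Crabp2. Capitals mark matches, on either strand, to AGGTCA (the half-site of many nuclear receptors), CAAAGNTCA (which can overlap AGGTCA by its last bases) or TATAAA. These motifs were chosen after the sequences were read. The Rbp2 window, chr9:98490287-98490536 on the plus strand, ends just before the start of 1 of 4 GENCODE transcripts and lies in an intron of 2 longer ones. The Rbp7 window, chr4:149454979-149455218, is on the minus strand and stops before the start of the annotated transcripts that begin there.
Rbp2: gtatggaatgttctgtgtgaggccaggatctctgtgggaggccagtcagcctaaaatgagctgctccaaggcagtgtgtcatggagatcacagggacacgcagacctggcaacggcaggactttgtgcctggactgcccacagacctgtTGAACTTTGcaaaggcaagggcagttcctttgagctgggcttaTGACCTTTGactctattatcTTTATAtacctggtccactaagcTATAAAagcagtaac
Rbp7: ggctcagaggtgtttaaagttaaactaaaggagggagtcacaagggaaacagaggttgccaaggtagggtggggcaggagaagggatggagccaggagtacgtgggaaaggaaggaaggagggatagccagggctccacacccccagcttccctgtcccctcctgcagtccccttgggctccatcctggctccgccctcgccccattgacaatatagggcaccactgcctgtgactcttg

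Both CAAAGNTCA matches in the Rbp2 flank are on the opposite strand, beginning 101 and 58 bases before the start site, and the second of them holds the AGGTCA match. The TATAAA matches begin 38 bases (opposite strand) and 15 bases before it. The Rbp7 flank had no match to any of the 3 motifs. Among all 32851 promoter entries, the 250 bases before the start held AGGTCA in 14.02%, CAAAGNTCA in 1.32% and TATAAA in 12.4%. A letter match is a description of the sequence and was not tested for binding.

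The libraries held 3468 to 5327 cells each after removal of likely doublets, with 47258161 to 62567817 UMIs (unique molecular identifiers, 1 per captured transcript) and a median of 9968 to 13366 UMIs per cell. Levels are given in CPM, the UMIs of a gene summed over a library's cells and scaled to equal library totals. Their 95% intervals are exact Poisson limits and hold no error but that of counting. Each day-4 condition was 1 library, so the day-4 comparisons have no replicate error, no test and no p-value. A gene was described as apart where its levels differed at least 2-fold after 5 CPM was added to each, and at least 1 of them reached 10 CPM. Every log2 ratio of levels below, and every median of them, is of levels with 5 CPM added, so that for genes of low level it is smaller than the fold beside it, which is the plain ratio. The 3 day-4 comparisons share the vehicle library. In summed libraries, fewer cells of a type and less RNA per cell cannot be told apart. Between 2 and 17 cell barcodes were shared by a pair of libraries. The organoids are epithelial by their markers: 8 fibroblast and smooth muscle genes together stayed between 0.0812 and 0.337 CPM, and 4 haemoglobin genes had no UMI in any library.

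Rbp2 was measured in every library, with its highest level under retinoic acid and, among day-4 libraries, its lowest under the RXR antagonist. The retinoic acid library had 16122 CPM, the vehicle library 6279, the vitamin A-free library 4168 and the RXR antagonist library 1195. The day-1 libraries had 1114 and 2046. Among genes ordered by UMIs, in libraries that count 1 tag per transcript, Rbp2 was at rank 3 with retinoic acid, 9 with vehicle, 20 without vitamin A and 111 with the antagonist. Retinoic acid stood alone at the top, and the antagonist value fell between the day-1 pair. That pair differed 1.84-fold, so the vitamin A-free and vehicle values, 1.51-fold apart, were closer than the 2 day-1 libraries. Retinoic acid and vehicle were farther apart than that pair, and so were the antagonist and vehicle. The pair is of another day and its spread may be technical, so it does not give the replicate error of day 4.

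Rbp7 had a different order. The vehicle library had 59.6 CPM and the vitamin A-free library 48.6, against 12.3 with the antagonist and 5.23 with retinoic acid. The day-1 libraries had 3.05 and 2.68, a ratio of 0.878 (interval 0.707 to 1.09). The vehicle and vitamin A-free libraries thus stood well above the other 4. The 4 endothelial markers, defining a cell type known for RBP7, summed to only 1.08 to 1.58 CPM, and Cdh5 had no UMI in any library.

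Rbp4 was sparse and highest at day 1. The day-1 libraries had 7.91 and 20.3 CPM (495 and 1203 UMIs), 2.56-fold apart. At day 4 the vitamin A-free library had 4.49 (221 UMIs), the antagonist library 3.03 (143 UMIs), the vehicle library 2.52 (126 UMIs) and the retinoic acid library 0.165 (10 UMIs). Only the retinoic acid value is separated from its neighbour by more than the day-1 pair's ratio, which is no replicate error for day 4.

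Crabp2 was essentially undetected. It had no UMI in the vehicle day-4 library and 1 in each of the other 5. Zero UMIs in the vehicle library allow up to 0.0600 CPM, taken as 3 UMIs. No level, comparison or cell type of Crabp2 can be given at this depth.

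**Figure D1:**
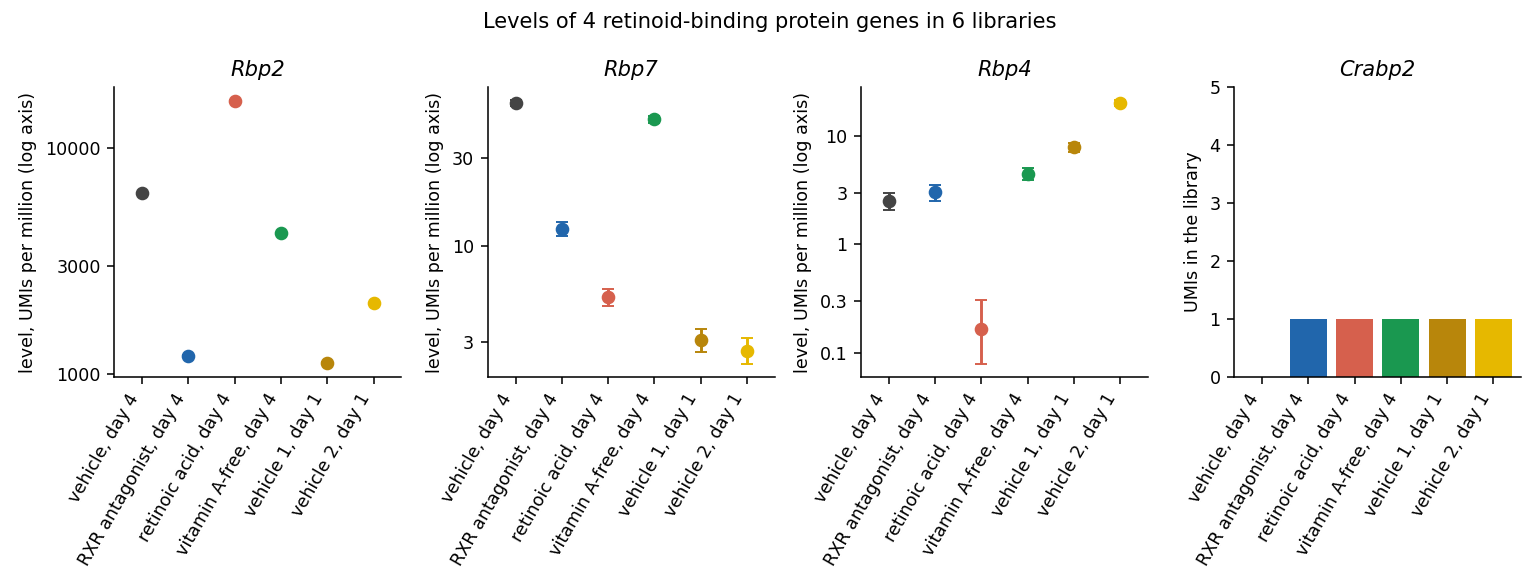
Levels of Rbp2, Rbp7 and Rbp4 in CPM (log axes) and Crabp2 as UMIs per library, for the 6 libraries, each point or bar being 1 library. Bars on points are 95% Poisson intervals. Rbp2 peaks with retinoic acid at 16122, Rbp7 with vehicle at 59.6 and Rbp4 in the second day-1 library at 20.3.

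With the RXR antagonist, both members that reached the level floor were lower than with vehicle. This is a comparison with a wide background: 1283 of 8387 genes, 15.3%, were at least 2-fold apart, 8.38% lower. Rbp2 was 5.25-fold lower (interval 5.21 to 5.30), a log2 ratio of -2.39. Rbp7 was 4.83-fold lower (interval 4.42 to 5.29), with a log2 ratio of -1.90 after 5 CPM was added. The median over all measured genes was 0.01. Rbp4 was under the floor, with a ratio of 1.202 (interval 0.939 to 1.54). Markers of some cell types differed too, while 9 villus tip enterocyte markers were close, at 1111 CPM against 1276 with vehicle. The 14 enterocyte markers summed to 5039 CPM with the antagonist, with Apoc3 and Lct at no UMI, against 42402 with vehicle, and 10 regenerative and fetal-like markers to 10603 against 119, and the part of the latter in these differences was not tested.

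With retinoic acid, Rbp2 was higher and Rbp7 lower than with vehicle. At least 2-fold differences were seen in 641 of 7976 genes, 8.04%, made up of 223 higher (2.8%) and 418 lower (5.24%). Rbp2 was 2.57-fold higher (interval 2.56 to 2.58), a log2 ratio of 1.36. Rbp7 was 11.4-fold lower (interval 10.1 to 12.8), with a log2 ratio of -2.66 after 5 CPM was added, and only 5 of the measured genes were lower still by that ratio. Rbp4 was 15.2-fold lower (interval 8.02 to 32.6), from 126 to 10 UMIs, but under the floor. Over all genes the median log2 ratio was -0.27. Scaling by TMM factors moved that median to 0.08, and 449 genes were higher and 123 lower. With DESeq2's size factors it was 0.13, with 483 higher and 108 lower. Rbp2 and Rbp7 kept their directions under both. Enterocyte markers summed to 101648 CPM against 42402.

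Without vitamin A neither gene was 2-fold apart from vehicle, in a comparison where only 31 of 8180 genes were, 0.379% (0.183% higher and 0.196% lower). Rbp2 was 1.51-fold lower (interval 1.498 to 1.515), with 104 genes lower still by their log2 ratio, and Rbp7 was 1.23-fold lower (interval 1.16 to 1.29). Rbp4 was 1.78-fold higher (interval 1.43 to 2.24) and under the floor. Enterocyte markers were lower too, at 27253 against 42402 CPM. Crypt stem cell markers were higher, at 1562 against 882.

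Day 4 and day 1 were compared with a test, since vehicle had 2 libraries at day 1. At day 4 Rbp2 and Rbp7 were higher and Rbp4 lower, by edgeR's quasi-likelihood test on summed UMIs with Benjamini-Hochberg adjustment over 17592 genes. Of these genes 6019, 34.2%, were called, 17.3% higher and 16.9% lower at day 4. The spread comes from the 2 day-1 libraries alone and the single day-4 library is assumed to vary like them. Nothing in the labels says that the pair came from separate animals or cultures. The p-values thus measure only the spread between these 2 libraries, which may be technical. For each gene edgeR moderated this spread towards the trend over all genes tested, so it is not the spread of that gene alone. The SE given with each change is the size of the log2 change divided by the square root of edgeR's F statistic. Rbp2 rose by 2.17 on the log2 scale (SE 0.32, adjusted p = 0.00552 by edgeR), and its day-4 level was above both day-1 levels. Rbp7 rose by 4.55 (SE 0.16, adjusted p = 0.000355 by edgeR), again above both. Rbp4 fell by 2.30 (SE 0.59, adjusted p = 0.0286 by edgeR), below both. The Rbp4 call was lost without a filter on low counts (edgeR adjusted p = 0.0903), without doublet removal (edgeR adjusted p = 0.0525) and with DESeq2 (adjusted p = 0.0833). By the ratio of levels 18.1% of 8619 genes were at least 2-fold apart, 7.6% higher and 10.5% lower. The members' ratios were 3.97-fold for Rbp2, 20.8-fold for Rbp7 and 5.599-fold, lower, for Rbp4. Against the first day-1 library alone the Rbp4 log2 ratio was -0.78, under the 2-fold line, in place of -1.35. Crabp2 did not pass the filter and was not tested. Cell-type markers differed too: enterocyte markers summed to 42402 CPM at day 4 against 5778 and 10308 at day 1, 12 cycling markers to 1233 against 3700 and 3331, and regenerative and fetal-like markers to 119 against 2276 and 2812. The part of the cycling and regenerative markers in these differences was not tested.

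Cells were clustered without the 4 genes, and clusters were named from marker lists where the markers allowed. Rbp2 was broad within the absorptive lineage. In the vehicle library the enterocyte-like cluster led by Ctrb1 and Rdh7 had 12250 CPM, a less mature cluster by enterocyte markers, led by Clec2e and St3gal4, had 5925, and the 2 stem-like clusters had 365 and 283. The same clusters of the vitamin A-free library had 10119, 5873, 446 and 204. The Clec2e cluster was nearly the same in both libraries, while the enterocyte-like cluster was lower without vitamin A. These 2 clusters held 32.0% and 31.3% of vehicle cells but 24.7% and 22.2% of vitamin A-free cells. Over all libraries together the stem-like clusters had 425 and 242 CPM of Rbp2, and the Paneth-like cluster, part of the background used below, had 287. A stem-like level near that value cannot be told from background.

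Retinoic acid cells formed enterocyte-like clusters of their own, which held most of that library. The cluster led by Fabp6 and Acaa1b (39.8% of cells) had 19114 CPM of Rbp2, that led by Apoa1 and Apoa4 (25.4%) had 21610 and that led by Reg1 and Slc40a1 (9.41%) had 18600. The remaining one, led by Fabp6 and Fabp1 (10.4%), had 7606. Stem-like clusters of the same library had 503 and 301, against the 365 and 283 of vehicle. The treatment and the cluster cannot be told apart for clusters that only 1 library fills.

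Antagonist cells fell into clusters of their own. The largest, led by Paqr5 and Nupr1 (52.2% of cells), had 1566 CPM, and regenerative-like clusters led by Ly6a with Ly6d and by Sprr1a with Ly6d had 889 and 846. The goblet-like cells of that library had 27.3. After each cell was thinned to 5000 UMIs, 75.8% of antagonist cells had an Rbp2 UMI (exact Clopper-Pearson interval 74.3 to 77.3%, and 83.2% before thinning). This compares with 3.85% (1.06 to 9.56%, and 12.8% before thinning) of the goblet- and Paneth-like cells of that library, taken as the background. The median depths of these groups were 13366 and 10078 UMIs. With vehicle the shares were 83.4% (82.2 to 84.5%) and 36.03% (27.98 to 44.7%), at median depths of 10780 and 7759, and 88.9% and 46.7% before thinning. With retinoic acid they were 96.4% (95.8 to 96.9%) and 71.95% (60.9 to 81.3%), at median depths of 11720 and 7892, and 98.5% and 85.3% before thinning. The cell types in this background differed between libraries. Paneth-like cells numbered 6 with the antagonist, 137 with vehicle and 75 with retinoic acid. The goblet-like cluster led by Zg16 and Clca1 held 118, 11 and 18 in the same order. Background shares of different libraries are thus not shares of the same cell type. In the retinoic acid library most secretory cells had an Rbp2 UMI too, so a UMI did not set other cells apart from this background. Whether secretory cells express Rbp2 was not tested. Thinning left out 228, 352 and 287 cells of these 3 libraries as too shallow.

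Day-1 cells had most Rbp2 in a cluster led by Acta1 and Cyp2c29, the day-1 cluster with the highest enterocyte markers, at 4587 and 5253 CPM. It held 11.9% of the cells of the first library and 21.1% of the second, and 34.1% and 47.0% of their Rbp2 UMIs. Within the cluster the pair differed less than over the whole libraries.

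Rbp7 was highest before full enterocyte maturity. In the vehicle library the cluster led by Stc2 and Ddit4 had 125 CPM and the Clec2e cluster 103, against 40.9 in the enterocyte-like cluster and 39.5 and 17.9 in stem-like clusters. Without vitamin A the values in the same order were 81.3, 90.1, 49.9, 35.5 and 12.8. With retinoic acid the enterocyte-like cluster led by Fabp6 and Fabp1 had 21.7 and held 46.4% of the library's Rbp7 UMIs. The other 3 large enterocyte-like clusters had 2.58, 1.01 and 0.251. In the stem-like cluster with more cycling markers Rbp7 was at 11.2 with retinoic acid against 39.5 with vehicle, while in the other stem-like cluster it was at 14.6 against 17.9 with overlapping intervals (9.96 to 20.6 and 14.2 to 22.4). Antagonist cells had 18.03 in the Paqr5 cluster, 48.7 in a small cluster led by Cdkn2d and Stc2, and 3.93 and 3.44 in regenerative-like clusters. At day 1 no cluster of at least 50 cells was above 6.51. The share of cells with an Rbp7 UMI after thinning was 18.2% with vehicle (17.01 to 19.3%, and 26.5% unthinned) and 15.2% without vitamin A (14.1 to 16.2%, and 22.9% unthinned). It was 5.31% with the antagonist (4.56 to 6.14%, and 10.3% unthinned) and 2.27% with retinoic acid (1.87 to 2.73%, and 4.58% unthinned), and 1.58% and 1.21% at day 1. Goblet- and Paneth-like cells of the vehicle and vitamin A-free libraries had lower shares, 2.94% (0.807 to 7.36%) and 2.16% (0.592 to 5.44%), while the antagonist value, 0.962% (0.0243 to 5.24%), had an interval that overlapped that of its library. These cells were mostly Paneth-like with vehicle and without vitamin A, and mostly goblet-like with the antagonist. The cluster of peptide-hormone cells had no Rbp7 UMI. Its 131 cells deep enough to thin allow a share with a UMI of up to 2.29%, which does not limit the share of cells that express the gene, and 197 were too shallow.

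**Figure D2:**
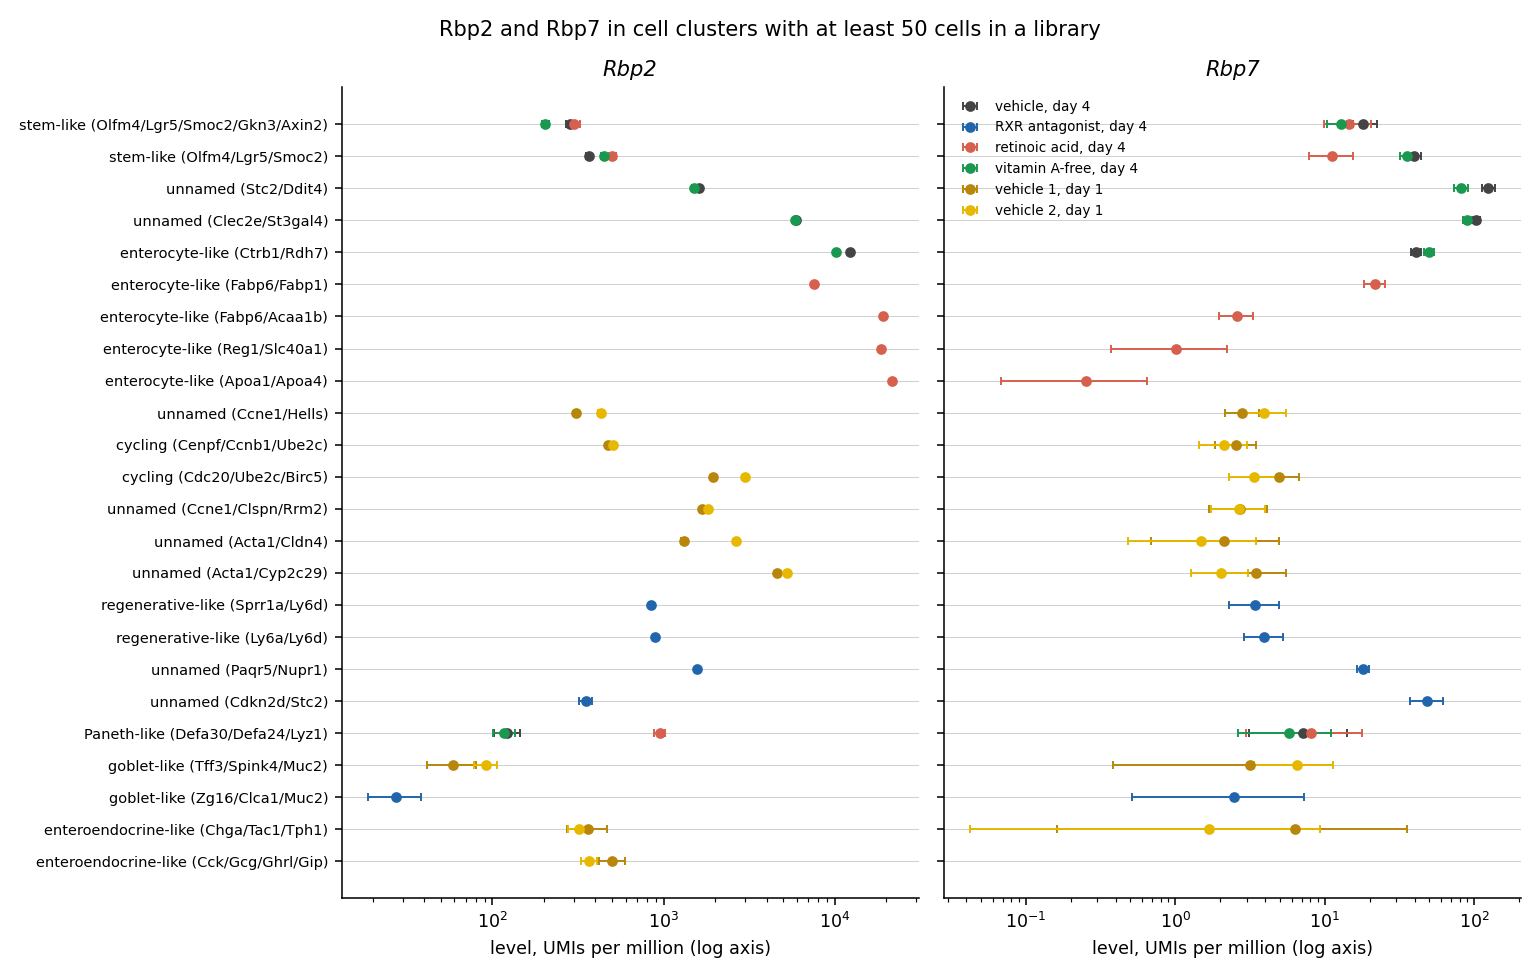
Levels of Rbp2 and Rbp7 (CPM, log axes) in cell clusters, named by marker lists and leading genes, with 1 point per library that has at least 50 cells in the cluster. Bars are 95% Poisson intervals and values of 0 are not drawn. Rbp2 is highest in the enterocyte-like clusters (21610 with retinoic acid), and Rbp7 in the Stc2 and Clec2e clusters (125 and 103 with vehicle).

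Cells were also placed by the share of their UMIs that came from the 14 enterocyte markers, which include neither gene. Bin edges were chosen after the data were seen, and bins of under 20 cells were left out. A bin can hold different clusters in different libraries. Among the markers, Fabp1 gave 4363 of 5039 CPM with the antagonist, 21285 of 42402 with vehicle and 50196 of 101648 with retinoic acid. Fabp2 gave 423, 2175 and 15935 in the same order. Cells with equal marker content can thus differ in which markers make it up. In the vehicle library Rbp2 climbed through every bin, from 137 CPM in cells under 0.25% to 3260 at 1 to 2% and 16816 in cells over 12%. Rbp7 went up and then down, from 11.4 to 162 at 1 to 2% and back to 5.75 (8 UMIs). The vitamin A-free library repeated both shapes, with Rbp7 at 7.33, 139 and 7.91 (2 UMIs) in those bins.

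In cells with 2 to 4% of enterocyte marker UMIs, 4 libraries had nearly the same Rbp2. The vehicle library had 5502, the vitamin A-free library 5740 and the day-1 libraries 5508 and 5952. The antagonist library had 2447 and the retinoic acid library 1702 in that bin. Rbp7 in the same bin was 117 and 99.2 in the vehicle and vitamin A-free libraries, but 4.90 and 3.07 in the day-1 libraries. In this bin the day-1 and day-4 difference in Rbp2 was thus small, and that in Rbp7 was not. Other bins held Rbp2 differences beyond their intervals. Vehicle had 137 under 0.25% against 166 and 202 at day 1, and 9185 at 4 to 8% against 10291 and 10530. At 1 to 2% the day-1 libraries were lower, at 2894 and 2958 against 3260. Over 12% the vitamin A-free library had 13305 against 16816 with vehicle.

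Between 1 and 8% of marker UMIs both the antagonist and the retinoic acid library had less Rbp2 than vehicle. Retinoic acid was also lower at 0.25 to 0.5%, at 284 against 794, and at 0.5 to 1%, at 413 against 1800. The antagonist was higher than vehicle at 0.25 to 0.5%, at 1707. At 0.5 to 1% it had 1716, with an interval that overlapped that of vehicle. Antagonist cells under 0.25% had 764 CPM of Rbp2 against 137 with vehicle, while at 4 to 8% they had 3655 against 9185. Retinoic acid cells had 168 under 0.25%, 788 against 3260 with vehicle at 1 to 2%, and 17431 against 13054 at 8 to 12%. Of retinoic acid cells, 2299 and 1886 were in the 2 highest bins and only 77 in the 1 to 2% bin, so the lower values rest on few cells. For Rbp7 both treatments were lower than vehicle at 1 to 2%, at 17.8 with the antagonist and 27.6 with retinoic acid against 162. Retinoic acid was also lower at 8 to 12%, at 4.75 against 36.1. In cells under 0.25%, which were 65.5% of the antagonist library, Rbp7 was at 9.37 (interval 8.31 to 10.5) with the antagonist and 11.4 (9.61 to 13.4) with vehicle, with overlapping intervals, and at 5.69 (3.52 to 8.70) with retinoic acid. By the share of these markers, whose mix differed between libraries, Rbp7 was thus lower in every bin with retinoic acid. With the antagonist Rbp7 was lower in every bin that library filled but the lowest.

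**Figure D3:**
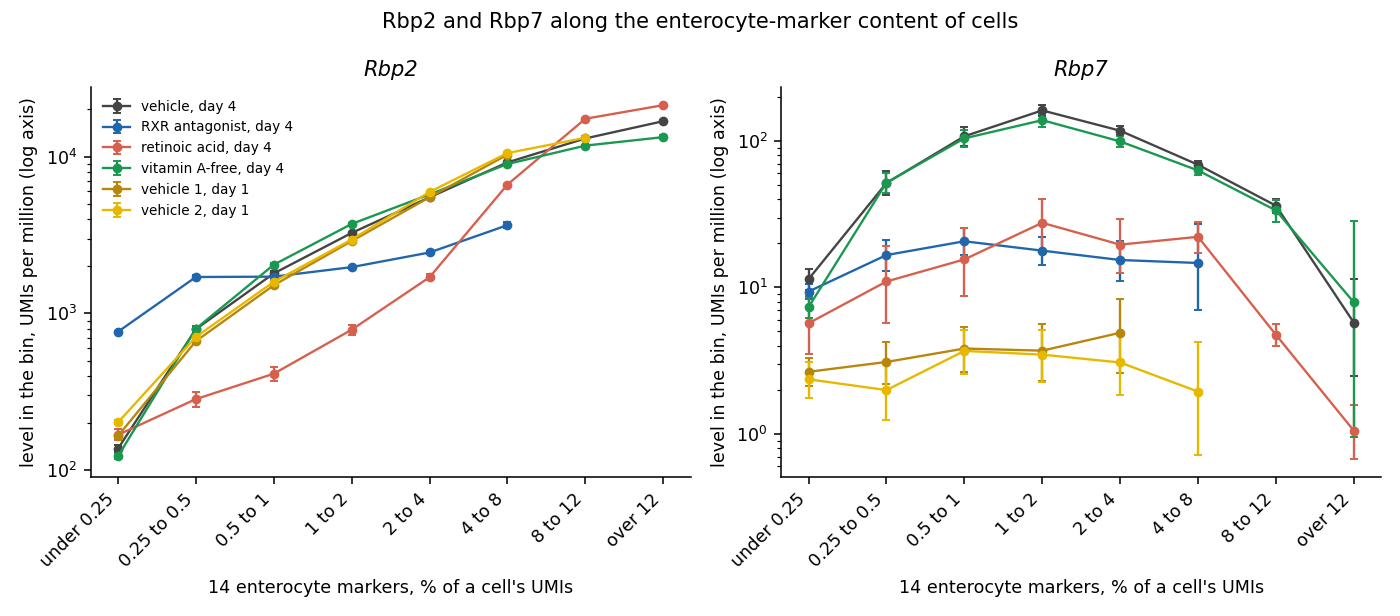
Rbp2 and Rbp7 levels (CPM, log axes) in cells binned by the percentage of their UMIs from 14 enterocyte markers, with 1 line per library and 95% Poisson intervals. Bins under 20 cells and values of 0 are not drawn. Rbp2 increases along the axis in the vehicle library from 137 to 16816, and Rbp7 peaks there at 162 in the 1 to 2% bin.

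Most Rbp4 UMIs came from rare hormone-producing cells in 5 of 6 libraries, all but the retinoic acid library. An enteroendocrine-like cluster of 328 cells, led by the peptide hormone genes Cck, Gcg, Ghrl and Gip, held 92.1% and 93.8% of the Rbp4 UMIs of the day-1 libraries. At day 4 it held 86.5% with vehicle, 85.1% without vitamin A, 69.2% with the antagonist and 30% with retinoic acid, the last being 3 of 10 UMIs. The level in the cluster was 1783 and 1291 CPM at day 1, and 664 and 705 in the cluster that took most of these cells at a coarser clustering. A second enteroendocrine-like cluster, led by Chga, Tac1 and Tph1, genes of serotonin-making cells, had 6.35 and 31.9. The enterocyte-like cells of the vehicle library had 0.113 in their main cluster, from 2 UMIs.

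The hormone cluster was larger at day 1, as was the Rbp4 level, but among day-4 libraries the orders of cluster size and Rbp4 level differed. It held 1.39% and 3.60% of cells at day 1 (74 and 183 cells). At day 4 it held 0.456% with vehicle, 0.663% with the antagonist, 0.156% with retinoic acid and 0.399% without vitamin A (21, 23, 8 and 19 cells). The 17 enteroendocrine markers, of which the cluster's leading genes are part, summed to 1258 and 4249 CPM at day 1. At day 4 they summed to 398, 811, 101 and 487 in the same order, with Sst at no UMI in the vehicle and retinoic acid libraries. Within the cluster the day-4 level was 960 CPM with vehicle, 551 with the antagonist, 65.6 with retinoic acid and 1741 without vitamin A. These day-4 values rest on few cells: the cell with most Rbp4 gave 42 of the 126 UMIs with vehicle and 66 of 221 without vitamin A. Leaving out that cell in every library gave 1.68 with vehicle and 3.15 without vitamin A, against 7.11 and 19.1 at day 1.

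Among cells of the hormone cluster, Rbp4 followed the most abundant hormone of the cell. In 206 cells where Cck led, 83.5% had an Rbp4 UMI and the level was 1515 CPM. In 79 cells where Ghrl led, 31.6% had one and the level was 303. Gip cells had 1983 (16 cells), Gcg cells 1061 (13 cells) and Sst cells 6670 (4 cells, all from day 1). Of the 64 Rbp4 UMIs of Gcg cells, 28 came from 1 day-4 cell, and the 12 Gcg cells of day 1 had 715. The lower level of Ghrl cells was seen in both day-1 libraries, at 765 and 397 against 1891 and 1378 in Cck cells. Median depths were 4792 UMIs for Cck cells and 3866 for Ghrl cells. Outside the enteroendocrine-like clusters, 0.117% to 1.11% of cells per library had an Rbp4 UMI.

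Outside the enteroendocrine-like clusters, the highest Rbp4 level in a cluster with at least 50 cells in a library was in goblet-like cells. The goblet-like cluster of the antagonist library had 22.3 CPM (interval 14.7 to 32.5), from 27 UMIs in 118 cells, which was 18.9% of the library's Rbp4 UMIs. The cells of that library's Paqr5 cluster had 0.245. After thinning, 8.65% of antagonist goblet- and Paneth-like cells had an Rbp4 UMI, against 0.833% of all cells of that library (intervals 4.03 to 15.8% and 0.550 to 1.21%, and 12% and 1.18% before thinning). Goblet-like cells of the day-1 libraries had 4.75 and 2.71, from 3 and 5 UMIs.

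**Figure D4:**
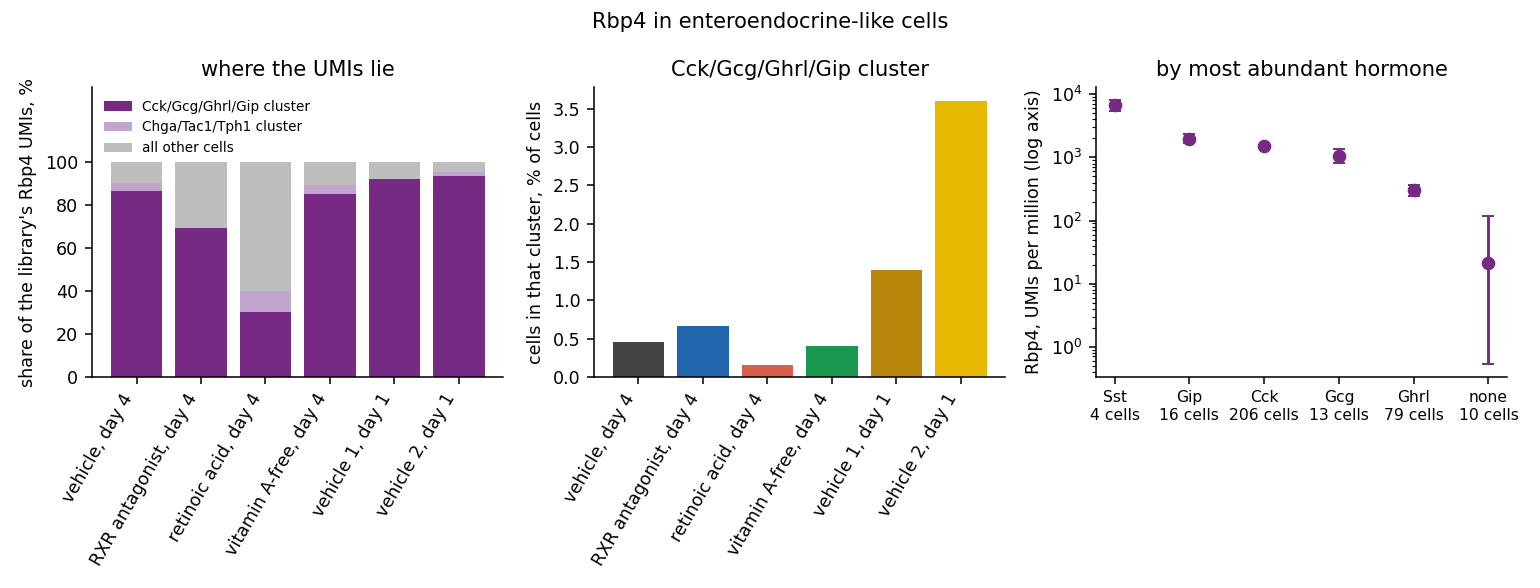
Left, share of each library's Rbp4 UMIs by cell cluster; middle, share of cells in the peptide-hormone cluster; right, Rbp4 level (CPM, log axis, 95% Poisson intervals) in that cluster's cells grouped by their most abundant hormone gene, all libraries together. The cluster holds most Rbp4 UMIs in every library but that of retinoic acid, and 3.60% of cells in the second day-1 library.

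Genes whose pattern was most like each member were ranked among 8814 genes by Pearson's r of log2 levels, as a description. Over the 6 libraries the closest to Rbp2 were Acy3, Bco2 and Ly6g2 (r = 0.996, 0.996 and 0.995), and over the 29 clusters Mogat2, Ces2c and Sar1b (0.980, 0.968 and 0.964). For Rbp4 they were Chga, Tph1 and Rrp36 over libraries (0.993, 0.992 and 0.976) and Ghrl, Gip and Lect2 over clusters (0.958, 0.954 and 0.952). For Rbp7 they were Spcs2, Fau and Kdm3a over libraries (0.991, 0.991 and 0.988), and over clusters no gene passed 0.782, the value of Vrk3. The points share libraries and cells, and few points allow high values among so many genes.

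Among other proteins that bind retinoids or fatty acids, several differed between libraries. Fabp5, which can carry retinoic acid, was at 126 with vehicle, 950 with the antagonist, 36.4 with retinoic acid and 230 without vitamin A. Rbp3 and Crabp1 were near 0, Crabp1 at no UMI with vehicle. In the wider lipid-binding family of 15 genes, Fabp1 and Fabp2, the fatty acid carriers of enterocytes, were 4.88- and 5.14-fold lower with the antagonist and 2.36- and 7.33-fold higher with retinoic acid. Fabp6, the ileal bile acid carrier, went from 0.140 with vehicle to 250.3 with retinoic acid. Of this family, Rbp2 and Rbp7 included, 6 were measured with the antagonist (2 higher, 4 lower, where 6.92% and 8.38% of all genes were) and 6 with retinoic acid (4 higher, 2 lower, where 2.8% and 5.24% were).

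Ttr, the transthyretin that binds RBP4 in plasma, was at 23.6 with vehicle, 15.4 with the antagonist, 5.14 with retinoic acid and 70.6 without vitamin A. The hormone cluster, with 1085 CPM over all libraries, had the highest Ttr, but held only 6.94% of the vehicle library's Ttr UMIs against 35.1% and 57.5% at day 1. Ttr did not pass the test between days (log2 change 0.12, edgeR adjusted p = 0.886). Scarb1, an uptake receptor for carotenoids and lipids, was 10.7-fold higher without vitamin A. Stra6, a receptor for the RBP4 complex, was at or below 0.0635 in the 4 day-4 libraries. Stra6l, of the same list of uptake genes and receptors, was detected but under the floor. It was at 3.88 with vehicle, 1.86 with the antagonist, 1.78 with retinoic acid and 7.90 without vitamin A.

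Other retinoid genes, binding proteins and receptors among them, were lower more often than higher with the antagonist. Of 44 other retinoid genes 26 were measured there, with 5 higher and 12 lower (against 6.92% and 8.38% of all genes) and a median log2 ratio of -0.88, against 0.01 over all genes. All 3 measured genes of ester synthesis, hydrolysis and saturation were lower (Dgat1 6.07-fold, Ces1d 12.5-fold, Retsat 2.95-fold). Of 11 genes of retinol and retinal interconversion 6 were lower (among them Rdh7 from 207 to 1.95 CPM, Adh4 from 36.9 CPM to no UMI and Adh1 22.3-fold) and 2 higher (Akr1b8 23.03-fold, Rdh10 3.82-fold). Both measured retinal oxidising genes were lower (Aldh1a1 9.20-fold, Aldh1a7 10.0-fold). Lrat, which esterifies retinol presented by RBP2, was under the floor at 5.46 with vehicle and 0.106 with the antagonist. Of 4 measured receptor genes Rarg was higher, at 11.7 against 2.498 CPM. Rxra was at 9.23 against 19.7 CPM and Rxrb at 24.8 against 33.97, both under the 2-fold line after 5 CPM was added, and Rara was at 19.2 against 18.5.

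With retinoic acid 25 of the 44 were measured, 8 higher and 2 lower (against 2.8% and 5.24% of all genes), with a median of 0.41 against -0.27 over all genes. Cyp26b1, which breaks down retinoic acid, went from 0.2998 to 41.6 CPM. Akr1b8 was 9.34-fold, Cd36, a fatty acid transporter, 9.39-fold, Retsat 6.92-fold, Aldh1a1 2.86-fold and Bco2 2.61-fold higher. The 2 lower genes were Fabp5 and Ttr, whose levels are given above. Under TMM and DESeq2's factors 10 were higher and 2 lower, and no gene that was 2-fold apart changed direction. Without vitamin A 25 were measured, 3 higher and 1 lower (against 0.183% and 0.196% of all genes), with a median of -0.06 against 0.08 over all genes. Isx, a repressor of carotenoid cleavage, went from 172 to 0.0609 and Bco1, the carotenoid-cleaving enzyme that makes retinal, from 1.30 to 46.0. Under either of the other scalings 3 were higher and 3 lower.

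Between days 34 of the 44 were tested, and 20 rose and 7 fell by edgeR with adjustment over all genes, where 17.3% and 16.9% of all genes did, with a median of 1.26 against -0.03 over all genes tested. Among those that rose were Isx (log2 change 7.81, adjusted p = 0.000355), Adh4 (6.98, adjusted p = 0.000673) and Rdh7 (4.63, adjusted p = 0.00162). Scarb1 fell by 2.26 (adjusted p = 0.00112) and Aldh1a3 by 3.80 (adjusted p = 0.0244).

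**Figure D5:**
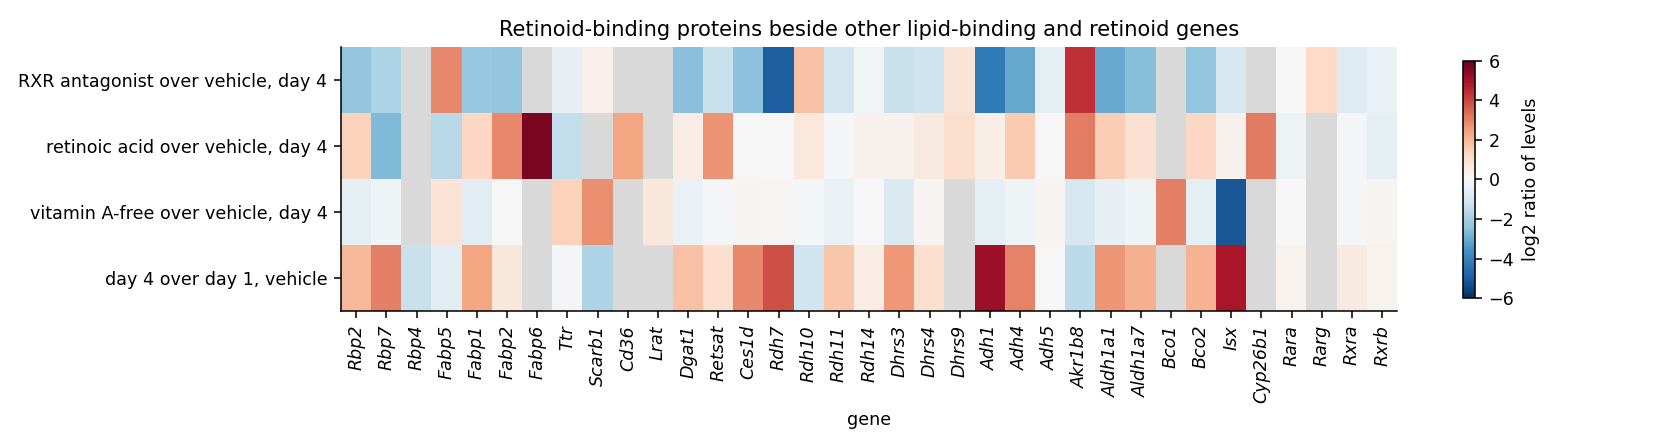
Log2 ratios of levels for the members with data (first 3 columns) and other lipid-binding and retinoid genes that reached 10 CPM in at least 1 comparison, in 4 comparisons; red is higher and blue lower in the first-named group, and grey marks a gene under that floor. Rbp2 is lower with the antagonist (-2.39) and higher with retinoic acid (1.36), while Rbp7 is lower with both (-1.90 and -2.66).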

How the data were processed

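The authors deposited whole-number UMI counts per gene and cell for 6 libraries. Per the submitters' processing notes, bcl2fastq 2.17, Cell Ranger 3.1.0 and GRCm38 were used. Every barcode passed a filter of 500 genes, 1000 UMIs and 20% mitochondrial UMIs. Scrublet's own threshold marked 0.430% of barcodes. The highest-scoring 0.8% per 1000 barcodes were therefore removed, 102 to 249 per library. Cells were clustered (scanpy 1.11.5, 2000 variable genes without the members, 40 components, 15 neighbours, Leiden resolution 1). Counts were summed per library or cluster and scaled to CPM. Day 4 and day 1 vehicle sums were tested with edgeR 4.0.16 (quasi-likelihood, TMM, filterByExpr, Benjamini-Hochberg at 0.05, R 4.3.3). On data simulated for that comparison with 17592 genes it recovered 47 of 100 genes changed 2-fold, 67 of 100 changed 4-fold, and called 5 others. The simulated day-4 library was made to vary like the day-1 pair, so the simulation cannot check that assumption. DESeq2 1.42.0 was an alternative. Clusters needed 50 cells in a library. Named genes were the 4 members, and per pathway group up to 4 genes with the largest ratios, except that Lrat, Stra6, Stra6l, Ttr, Isx, Rdh10 and the genes near 0 were named for their role. The members, gene lists and tests were chosen with earlier results of these data known. One gene that the pathway counts include is not reported here. Of the gene IDs, 54587 of 55335 matched GENCODE M21.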

Additional observations from a re-analysis of the deposited data

How the results depend on the processing

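No setting tried turned the direction of Rbp2 or Rbp7 in any comparison. Over other scalings, a pseudocount of 1 CPM, equal weight per cell and no doublet removal, the antagonist log2 ratio ranged from -2.40 to -2.32 for Rbp2 and from -2.18 to -1.85 for Rbp7. With retinoic acid it ranged from 1.36 to 1.81 and from -3.28 to -2.40, and without vitamin A from -0.75 to -0.54 and from -0.41 to -0.23. Between days, also without either day-1 library, it ranged from 1.62 to 2.49 for Rbp2, from 3.00 to 3.97 for Rbp7 and from -2.10 to -0.78 for Rbp4. The single-gene values recomputed include shares of cells and levels in clusters, which cannot change sign. Of all these values, 59 stayed within their margin, 44 moved beyond it and 3, all of them the Rbp4 call between days, were lost. The Rbp4 ratio between days also went under 2-fold without the second day-1 library (-0.78), which is within the margin. Counts of genes at least 2-fold apart depended on the floor and pseudocount. A floor of 50 CPM gave 682 with the antagonist, 380 with retinoic acid and 20 without vitamin A. A pseudocount of 1 gave 993 with retinoic acid and 51 without vitamin A. Without a filter on low counts edgeR called 3971 of 28578 genes between days, and without normalization beyond library totals 2305 higher and 3917 lower, against 3044 and 2975. Between days 655 genes were 2-fold higher and 904 lower by level, and 819 and 591 with TMM factors. Leaving out a day-1 library in turn gave 1331 and 1800 genes. The edgeR test was not repeated without a day-1 library, since no residual degrees of freedom would remain. No paired analysis was possible because only 1 of the groups compared has a second library. Depth limits Crabp2 in every library and Rbp4 at day 4, where single cells carry much of the count.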
